A study of Arabidopsis thaliana with 8 samples.

Results

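The wild-type m6A peak list of Arabidopsis thaliana seedlings was examined in full, with every one of its rows kept. It held 20521 peaks in 12939 genes, out of 41217 peaks in the 2 lists of the series. The samples were Columbia-0 seedlings aged 14 days, with no treatment and no transgene named in the labels. From whole seedlings, 2 pull-down libraries (WT_IP) were set over 2 input libraries (WT_INPUT), named as biological replicates 1 and 2. The protocols in the labels state that fragmented poly(A) RNA was the starting material, that m6A-bearing fragments were captured with an antibody and released with free m6A, and that both eluate and input were sequenced. Each peak had a gene identifier, a first and a last base counted along the gene's model, and a log2 enrichment of pull-down over input in each replicate. A peak was called repeatable where both log2 enrichments were at least 1, a 2-fold enrichment. The files gave no read counts, so the depth behind each value is unknown.

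N6-methyladenosine (m6A) is an internal methyl mark on messenger RNA. In plants it is laid down by a nuclear complex built around the methyltransferases MTA and MTB, with FIP37, VIR and HAKAI as partner subunits. It is removed by demethylases of the ALKBH family and bound by reader proteins with a YTH domain, which include the ECT proteins. In plant transcripts the mark is best known near stop codons and in 3′ untranslated regions, and it bears on RNA stability, processing and development.

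Of the listed peaks, 14003 (68.2%, exact binomial 95% interval 67.6 to 68.9) were repeatable, and they lay in 10709 genes (82.8% of the listed genes). Intervals of this kind cover counting error only. A further 3639 peaks reached 1 in replicate 1 alone and 2805 in replicate 2 alone, while 74 reached it in neither. Both replicates were at least 2, a 4-fold enrichment, in 8378 peaks (40.8%). At a log2 enrichment of at least 4 in both replicates 1915 peaks were left, and at 8 there were 121. The median log2 enrichment was 2.42 in replicate 1 and 2.44 in replicate 2 over all listed peaks, and 2.85 and 3.0 over the repeatable peaks. A peak list is itself a selection for enrichment, so no test of enrichment was made.

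The replicates had nearly equal medians, but single peaks often differed between them. The median absolute difference was 1.46 on the log2 scale over all listed peaks and 1.08 over the repeatable peaks. In 62.6% of the peaks the replicates differed by more than 1, and in 24.5% by more than 3. Across all listed peaks, which share their 4 libraries, Pearson's r was 0.16 and Spearman's rho 0.22. Only 74 listed peaks lay below 1 in both replicates, so the listing itself shapes these values. Across the repeatable peaks r was 0.33 and rho 0.40, values that the common threshold also shapes. The tenth of peaks that ranked highest in replicate 1 had a median of 7.85 there and 3.61 in replicate 2, where 82.6% of them reached 1. The tenth that ranked highest in replicate 2 had a median of 7.90 there and 3.57 in replicate 1. In these 2 sets 43.8% and 43.7% of the peaks reached 4 in the other replicate, so that most of these very high values came with a value below 4. The shares that reached 1 there, 82.6% and 83.4%, were near those of all listed peaks, 81.9% in replicate 2 and 86.0% in replicate 1. In 9.41% and 10.2% of the 2 sets the other replicate lay below 0, against 6.45% of all listed peaks in replicate 2 and 7.01% in replicate 1.

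**Figure D1:**
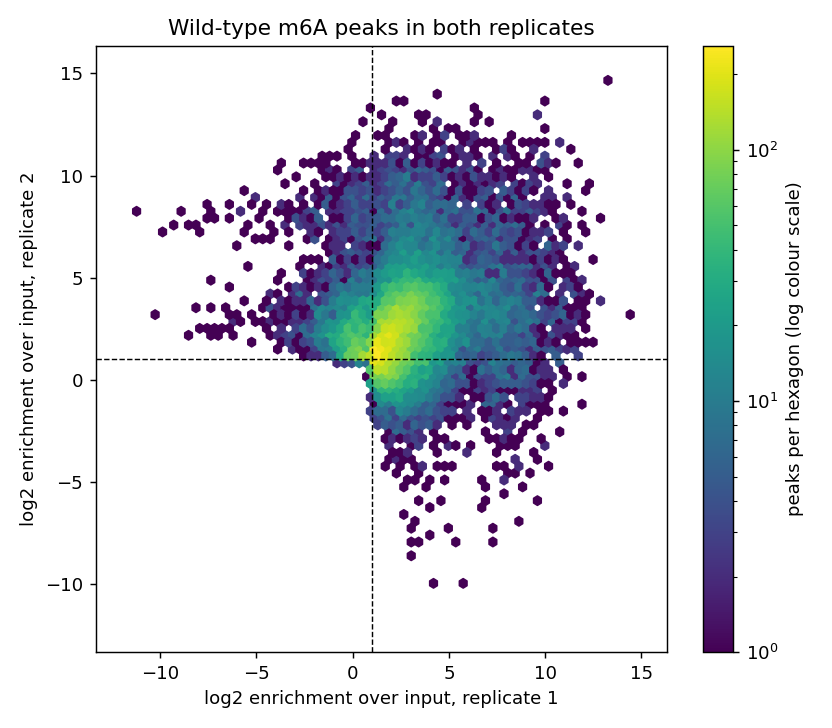
Log2 enrichment over input of the 20521 wild-type peaks in replicate 1 (horizontal axis) and replicate 2 (vertical axis), with the number of peaks per hexagon on a log colour scale and dashed lines at 1. The 14003 repeatable peaks fill the upper right region, and only 74 peaks lie below 1 in both replicates.

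The strongest peaks were ranked by the lower of their 2 replicate values, among genes with a symbol in the RefSeq gene table. The highest belonged to LUP2 (AT1G78960), a lupeol synthase that makes triterpenes, with a log2 enrichment of 13.22 in replicate 1 and 14.52 in replicate 2 over bases 2364 to 2526 (mean 13.87 ± 0.92, SD, n = 2). LUP2 has a close relative, LUP1, so that reads may have been split between them. CRLK2 (AT5G15730), a receptor-like kinase regulated by calcium and calmodulin, had 11.18 and 11.27 at bases 1340 to 1650 (mean 11.22 ± 0.06, SD, n = 2). These were followed by SR1 (AT2G22300), also known as CAMTA3, a calmodulin-binding transcription factor that restrains immunity, with 10.70 and 11.76 at bases 3264 to 3418. No other gene with a symbol exceeded 10 in both replicates.

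The other genes among the 15 strongest were of varied function. LNO1 (AT1G55540), a nucleoporin, had 9.63 and 10.51 at bases 5551 to 5704. PARP1 (AT2G31320), a poly(ADP-ribose) polymerase of the DNA damage response, had 9.18 and 10.59 at bases 3108 to 3264. ATX1 (AT2G31650), a histone H3 lysine methyltransferase, had 9.03 and 10.25 at bases 3143 to 3330. In these 3 genes replicate 2 was the higher, and the choice by strength placed both values far above the medians of the repeatable peaks. EHD2 (AT4G05520), an EH-domain protein of endocytosis, had 9.64 and 10.55 at bases 1615 to 1771. VPS20.1 (AT5G63880), an ESCRT-III subunit for sorting into multivesicular bodies, had 9.29 and 10.42 at bases 951 to 1070. UTR5 (AT3G46180), a UDP-galactose transporter, had 9.46 and 11.29 at bases 1109 to 1275. Each of these 3 genes, like LNO1 and ATX1, held a single listed peak.

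DWA2 and CMPG2 had the widest gaps between replicates among the 15. DWA2 (AT1G76260), a substrate receptor of a CUL4 ubiquitin ligase that dampens abscisic acid responses, had 9.55 and 12.87, and CMPG2 (AT5G64660), a U-box ubiquitin ligase, had 12.05 and 9.20. SSP4b (AT4G18140), a small C-terminal-domain phosphatase, had 9.97 and 10.51, and FLA17 (AT5G06390), a fasciclin-like arabinogalactan protein of the cell surface, had 10.09 and 9.35. PK3 (AT5G08160), a serine/threonine kinase, had 9.10 and 9.49, and ACA.l (AT1G13210) had 9.12 and 9.22. All lower values among the 15 were at least 9.03. In 3 of the 15 (CRLK2, PARP1 and ATX1) a replicate value was, on the linear scale, a whole number ending in 1, the form that adding 0.1 to a whole read count and to an input of 0 reads would give. Since the formula and the counts are not given, the highest values may depend on few or no input reads and are not read here as exact folds. SR1, SSP4b, DWA2 and VPS20.1 overlap another gene in the table, and no source used here states whether strand was used, so reads of the neighbours may not be told apart there.

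A second ranking took peaks whose replicates differed by at most 0.25, which held for 2089 of the 20521 peaks. Among genes with a symbol, CRLK2 and ACA.l led it. ENDO2 (AT1G68290), an endonuclease, had 8.90 and 8.82 at bases 1 to 100. RBL (AT3G21060), a subunit of the COMPASS-like complex that serves histone H3 lysine 4 methylation, had 8.55 and 8.74 at bases 2124 to 2235. The ENDO2 peak lay at the start of its gene model and the RBL peak far from it. ASY3 (AT2G46980), known for its part in the meiotic chromosome axis, had 8.57 and 8.61 at bases 2586 to 2744. PAO5 (AT4G29720), a polyamine oxidase, had 8.58 and 8.41 at bases 1627 to 1781. PEPR2 (AT1G17750), a receptor for the danger peptides called Peps, had 8.41 and 8.26 at bases 3271 to 3370. ENDO2, RBL, ASY3 and PEPR2 overlap another gene, and CRLK2, ENDO2, ASY3 and PEPR2 each had a value of the form described for CRLK2 above.

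At the other end, some peaks were high in a single replicate and depleted in the other. PIE1 (AT3G12810), the ATPase of the SWR1 chromatin remodeller, had 8.60 in replicate 1 and -6.75 in replicate 2 at bases 231 to 385. NLM1 (AT4G19030), an aquaporin, had 11.95 and -1.31. GRP23 (AT1G10270), a pentatricopeptide repeat protein needed for embryo growth, had -9.92 in replicate 1 and 7.40 in replicate 2 at bases 1748 to 1900. VPS26B (AT4G27690), a retromer subunit, had -8.37 and 7.65. Peaks of this kind are listed but not repeatable, and PIE1, GRP23 and VPS26B overlap another gene.

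The threshold itself separates peaks of nearly equal value. Just inside it, FIB4 (AT3G23400), a plastoglobule fibrillin, had 1.00 and 1.52, and ATRX (AT1G08600), a chromatin remodeller, had 1.00 and 2.12. Just outside it, NAC102 (AT5G63790), a NAC transcription factor, fell short of 1 in replicate 1 by less than 0.001 and had 2.39 in replicate 2.

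Enrichment varied with the place of the peak along the gene model. Of the 1775 peaks that began in bases 1 to 100, 59.7% (interval 57.4 to 62.0) were repeatable, with medians of 1.83 and 1.90. The share was lowest among the 1528 peaks that began at bases 101 to 300, at 52.9% (50.3 to 55.4), with medians of 1.72 and 1.54. It was 65.7% at bases 501 to 1000 and 74.9% at bases 1501 to 2000, where the medians were 2.88 and 2.95. Among the 1255 peaks that began at bases 3001 to 5000, 77.8% (75.4 to 80.0) were repeatable, with medians of 3.08 and 3.08. Both replicates thus had their lowest medians close to the gene start and higher ones further along.

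Genes with a single listed peak had a similar order, with a wider range of medians. In them the peaks that began at bases 101 to 300 had medians of 1.5 and 1.49, and those at bases 3001 to 5000 had medians of 4.16 and 4.32. A late position can be reached only in a long gene, so position and gene length cannot be told apart in these bins. Whether introns count in the positions is not given in the sources used here, and the distance to the stop codon was not analysed here.

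**Figure D2:**
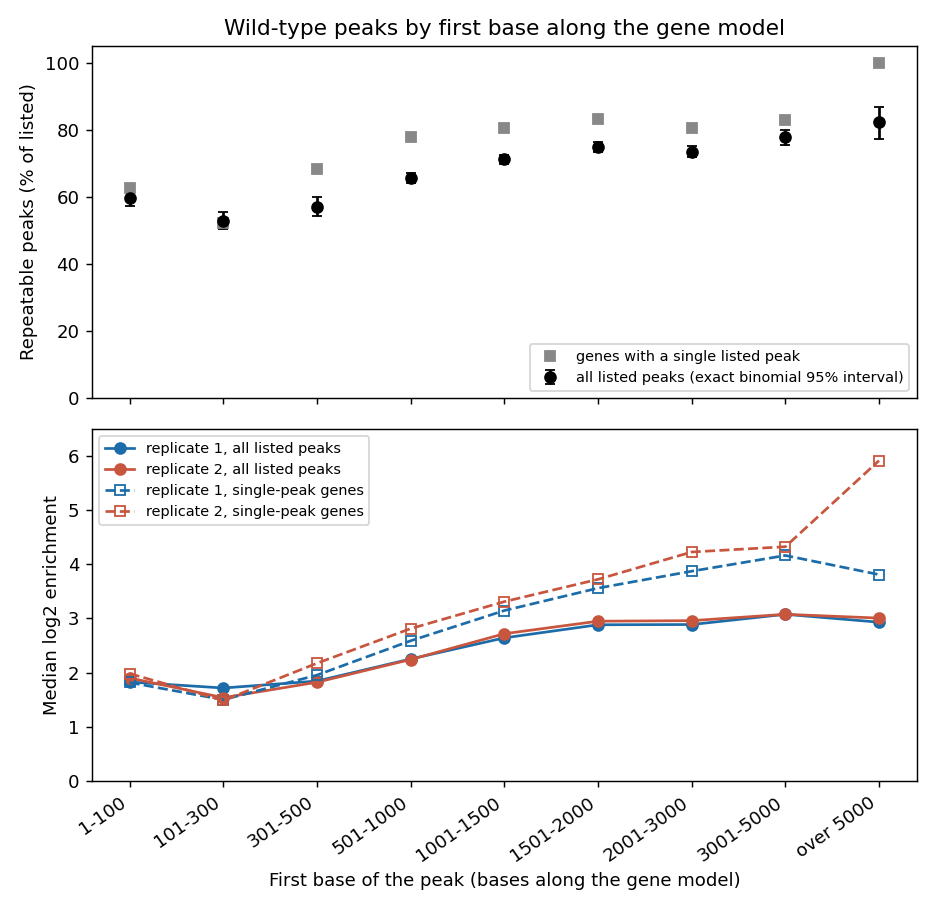
Upper panel, percent of listed peaks that were repeatable by the first base of the peak (bases along the gene model), for all listed peaks with exact binomial 95% intervals and for genes with a single listed peak; lower panel, median log2 enrichment in each replicate. Both panels are lowest at bases 101 to 300, at 52.9% and medians of 1.72 and 1.54, and the last bin of single-peak genes holds only 12 peaks.

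Peaks at the very start of gene models were a small set with a few strong members. Of the 14003 repeatable peaks 1060 (7.57%, interval 7.14 to 8.02) began in the first 100 bases, against 715 of the 6518 peaks that were not repeatable (11%, 10.2 to 11.8). Among genes with a symbol, the strongest by the lower replicate value was the CMPG2 peak at bases 18 to 168. ACA.l at bases 39 to 193 and ENDO2 at bases 1 to 100 followed. IMS2 (AT5G23020), a gene of the isopropylmalate synthase family, had 8.94 and 8.16 at bases 36 to 194. CHX17 (AT4G23700), a cation/proton exchanger, had 8.05 and 10.75 at bases 11 to 110. UXS6 (AT2G28760), a UDP-xylose synthase of cell wall precursor supply, had 7.83 and 8.81 at bases 26 to 144. All 6, chosen for their lower value, exceeded 7.8 in both replicates, where all peaks that begin there had medians of 1.83 and 1.90.

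Most peaks were narrow, with a median width of 157 bases and a range of 100 to 676 bases. Exactly 100 bases, the smallest width, was the width of 2249 peaks (11%). Peaks of 161 to 200 bases were repeatable in 75.3% of cases, those of 101 to 120 bases in 58.1%, the highest and lowest of the width groups. The share did not rise steadily with width. It was 62.0% at 100 bases, 68.5% at 201 to 240, 70.5% at 241 to 300 and 65.3% from 301 bases. The widest repeatable peaks had modest values. PERK10 (AT1G26150), a proline-rich extensin-like receptor kinase, had a peak of 676 bases with 2.1 and 1.59, and SNRK2.10 (AT1G60940), a kinase of osmotic stress signalling, had one of 676 bases with 2.45 and 1.96. LRX3 (AT4G13340), a leucine-rich repeat extensin of the cell wall, had 1.42 and 1.46 over 610 bases, and EMB1865 (AT3G18390) had 1.35 and 1.46 over 540 bases. All 4 lay below the medians of the repeatable peaks in both replicates.

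A single listed peak was the rule, in 7790 of 12939 genes (60.2%). Those peaks were repeatable in 76.7% of cases, with medians of 2.80 and 3.0. Genes with 2 listed peaks had 66.2% repeatable and medians of 2.32 and 2.29, and genes with 3 had 60.4% and medians of 2.14 and 1.99. Counting repeatable peaks only, 8059 genes had 1, 2157 had 2, 389 had 3 and 74 had 4. AT4G17140 had the longest list, with 14 peaks of which 8 were repeatable, spread over bases 118 to 13062. The values of its 8 repeatable peaks ran between 1.12 and 5.98, and its last peak, at bases 12894 to 13062, had 4.54 and 5.88. AT3G50370 and AT5G23110 also had 8 repeatable peaks each, out of 10.

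Of the 8 genes with the most repeatable peaks 3 have a symbol. RLT2 (AT5G44180), a partner of ISWI chromatin remodellers, had 7 listed peaks, all repeatable, and the last of them, at bases 4991 to 5152, had 11.04 and 3.96. SPI (AT1G03060), a BEACH-domain protein known from trichome and root hair shape, had 6 repeatable peaks of 9. BIG (AT3G02260), a very large protein needed for auxin transport, also had 6 of 9, between bases 1205 and 15440. Over its repeatable peaks RLT2 had medians of 4.22 in replicate 1 and 2.95 in replicate 2, and BIG had 2.11 and 3.53, so that the higher replicate differed between these genes.

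Within a gene, the last repeatable peak was usually the stronger. In the 2650 genes with 2 or more repeatable peaks the last peak had medians of 3.16 in replicate 1 and 3.38 in replicate 2, and the first peak 2.20 and 2.13. The mean over replicates was higher at the last peak in 1991 genes (75.1%), by a median of 0.99 on the log2 scale (last minus first). Both replicates placed the last peak higher in 1381 genes and the first peak higher in 302. Asking that both values of a peak exceed both values of the other, the last peak stood above the first in 1138 genes (42.9%) and the first above the last in 189 (7.13%). Both peaks come from the same libraries and gene, and alternative transcript ends were not examined.

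The step lay at the end of the series of peaks. In the 389 genes with 3 repeatable peaks the medians were 2.28 and 2.02 at the first, 2.12 and 2.18 at the second and 3.23 and 3.50 at the third. In the 74 genes with 4 they were 2.39 and 2.29, 2.12 and 2.02, 1.96 and 2.1, and 3.51 and 3.64. The peak with the highest mean was the last in 68.4% of the genes with 3 and in 66.2% of the genes with 4. The replicates named the same strongest peak in 204 of the 389 genes (52.4%).

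**Figure D3:**
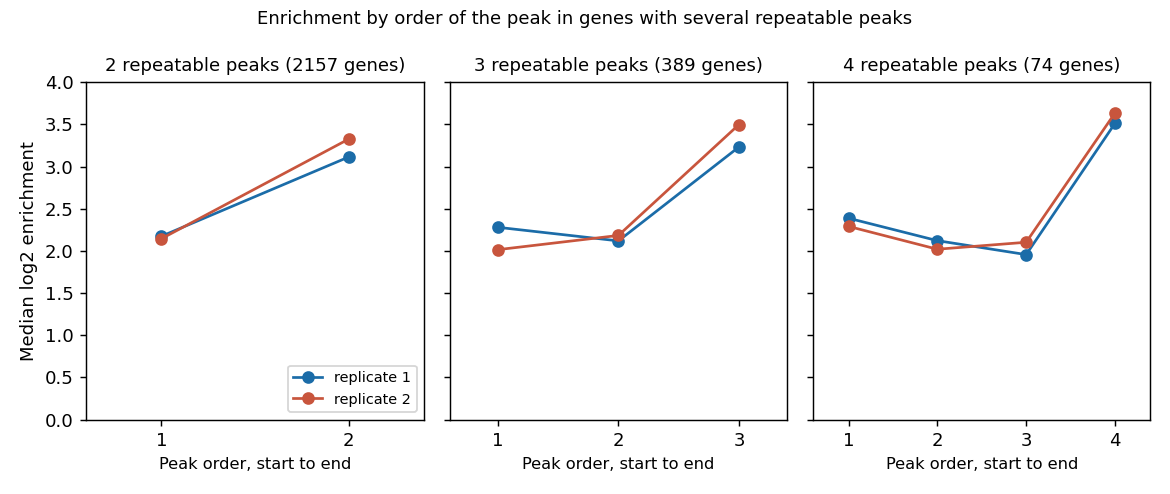
Median log2 enrichment of repeatable peaks (vertical axis) by their order from the start to the end of the gene model (horizontal axis), in genes with 2, 3 or 4 repeatable peaks, for replicates 1 and 2. The last peak is the highest in each panel, for example 3.23 and 3.50 at the third peak of 389 genes, while earlier peaks lie between 1.96 and 2.39.

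Gaps were ranked among genes with a symbol in which both values of a peak exceeded both values of the other. SR1 led those with a stronger last peak, with 10.70 and 11.76 at bases 3264 to 3418. Its first peak had 3.24 and 1.79 at bases 407 to 560. HSP91 (AT1G79930), a heat shock protein, had 7.48 and 11.12 at its last peak and 1.05 and 1.36 at its first. The alpha-adaptin gene alpha-ADR (AT5G22770), which encodes a clathrin adaptor subunit, had 10.20 and 7.43 at its last and 2.53 and 1.12 at its first. In FLA17 the last peak had 10.09 and 9.35 and the first 1.91 and 2.35. The separation of both values was thus a condition of choice for these 4 genes.

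The opposite pattern was rarer, and its 4 widest gaps were chosen in the same way. Only that of ACA.l, -7.30 (last minus first), was as large in size as the smallest of the 4 above, 6.99 in alpha-ADR. ACA.l had 2.19 and 1.55 at its last peak, bases 386 to 539, and 9.12 and 9.22 at its first, bases 39 to 193. LPD1 (AT3G16950), a plastid lipoamide dehydrogenase, had 2.53 and 1.79 at its last and 8.55 and 8.33 at its first. EIF3B-2 (AT5G25780), a subunit of translation initiation factor eIF3, had 3.36 and 2.40 at its last and 9.23 and 7.73 at its first, at bases 1 to 147. MPK15 (AT1G73670), a MAP kinase, had 2.86 and 2.22 at its last and 6.97 and 7.88 at its first. In 3 of these genes the first peak began within the first 100 bases, and LPD1, like alpha-ADR, overlaps another gene.

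Of 24 genes of the m6A machinery, 19 were listed and 16 had a repeatable peak. Among all protein-coding genes with a symbol 58.5% were listed and 49.9% had a repeatable peak, and of the listed ones 85.3% had a repeatable peak, close to the 16 of 19 here. At the level of peaks, 24 of their 43 peaks were repeatable, a share of peaks below the 68.2% of the whole list, with no interval computed. Most of the 19 listed genes held more than 1 peak, and the share falls in such genes over the whole list. It was 76.7% in genes with 1 listed peak, 66.2% with 2, 60.4% with 3, 57.2% with 4 and 54.7% with 5. All 6 writer genes were listed and 5 had a repeatable peak. MTA (AT4G10760), the catalytic subunit, had 7.14 and 3.06 at bases 2048 to 2214 and 2.07 and 1.16 at bases 221 to 320. MTB (AT4G09980), its partner methyltransferase, had 5 listed peaks, of which the last, at bases 3130 to 3288, had 5.20 and 4.58. VIR (AT3G05680), the scaffold of the complex, had 7.03 and 3.89 at its last peak, bases 6585 to 6792, and 3.89 and -2.21 at its first, which was not repeatable. HAKAI (AT5G01160), a ubiquitin ligase of the complex, had 4.36 and 1.21. HIZ2 (AT5G53440), a zinc finger protein that binds HAKAI, had 1 repeatable peak of 3, with 1.84 and 2.39 at bases 641 to 850. FIP37 (AT3G54170), the WTAP homologue, had -0.25 and 1.61 and was the writer without a repeatable peak.

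Of 5 demethylase genes only ALKBH9B and ALKBH10B were listed. ALKBH9B (AT2G17970) had 6.87 and 5.71 at bases 1746 to 1902. ALKBH10B (AT4G02940), known for a role in floral transition, had 1.37 and 1.00 at bases 531 to 770, at the threshold in replicate 2, and -0.45 and 2.34 at bases 1751 to 1996. The replicate values of ALKBH9B lay above all 4 values of ALKBH10B.

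Among the 13 reader genes 11 were listed and 9 had a repeatable peak, near the 85.3% of all listed genes with a symbol. ECT10 (AT5G58190) had the highest lower value, with 7.61 and 9.01 at bases 1701 to 1820, while its earlier peak had -1.93 and 8.06. ECT6 (AT3G17330) had 9.02 and 3.71, ECT12 (AT4G11970) 6.29 and 4.31 and ECT5 (AT3G13060) 3.49 and 6.05 and then 6.48 and 3.07. ECT2 (AT3G13460), a reader known from trichome branching and leaf growth, had lower but close values of 1.51 and 1.57 and then 2.32 and 1.52. ECT3 (AT5G61020), which acts with ECT2, had 1.02 and 1.29 at its repeatable peak. ECT1 (AT3G03950) had a single repeatable peak of 3, the last, with 2.48 and 3.42, and ECT8 (AT1G79270) likewise had only its last peak, with 2.22 and 6.25. The 3 peaks of ECT4 (AT1G55500) and the peak of CPSF30 (AT1G30460), a YTH-domain cleavage factor, with -0.73 and 9.73, were not repeatable. The repeatable peak of ECT7 (AT1G48110), at bases 2841 to 2940, had 2.03 and 3.58. ECT9 and ECT11 were not listed. MTA, MTB, HIZ2, ECT3, ECT5, ECT7, ECT8, ECT10 and ECT12 overlap another gene.

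**Figure D4:**
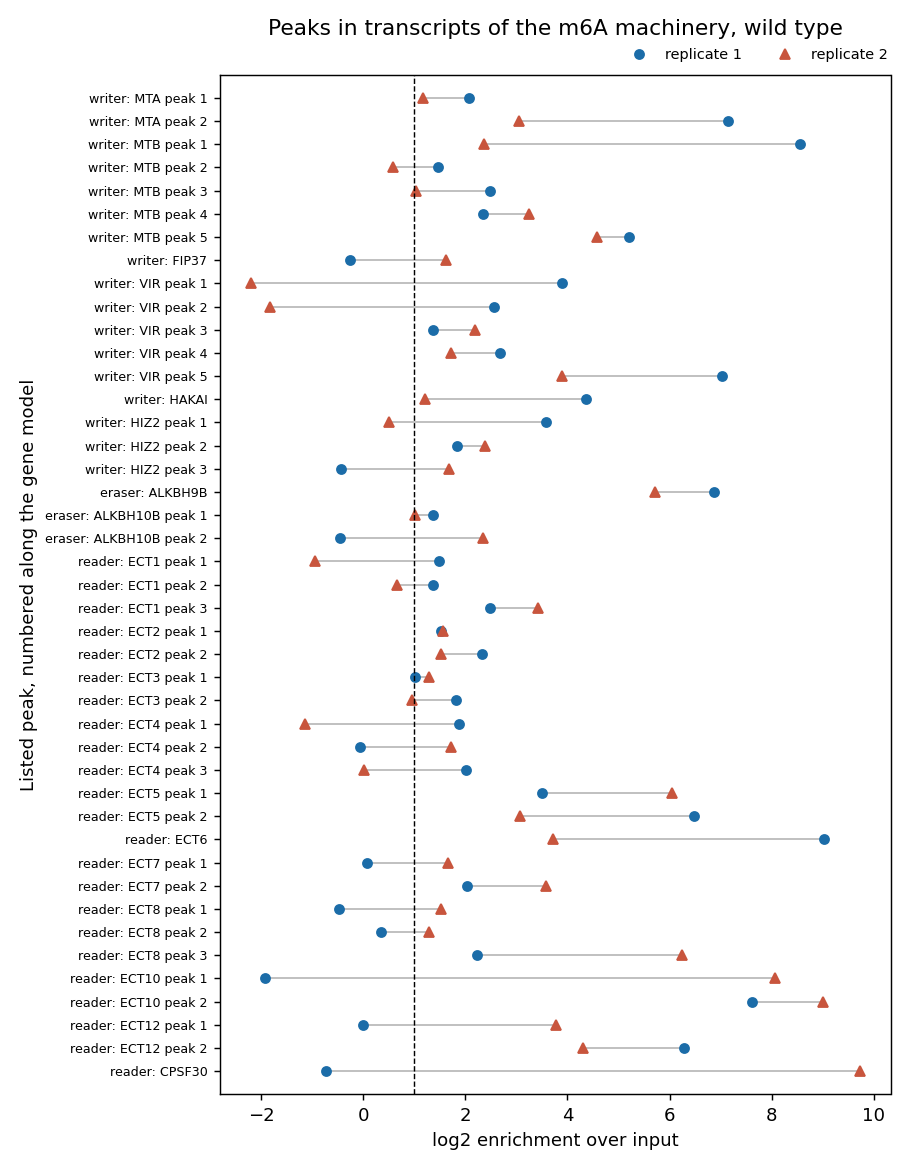
Log2 enrichment over input in replicate 1 (circles) and replicate 2 (triangles) of the 43 listed peaks in 19 genes of the m6A machinery, grouped as writers, erasers and readers and numbered along the gene model, with a dashed line at 1. Peaks with both symbols right of the line, 24 of 43, are repeatable; the widest gaps are those of CPSF30 and the first ECT10 peak.

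The labelled tissue was compared with known tissue genes by presence in the list. All 4 leaf mesophyll genes were listed, among them RBCS1A (AT1G67090), a Rubisco small subunit, with 1.01 and 1.17, and LHCB2.1 (AT2G05100), an antenna protein, with 1.56 and 1.73 at its repeatable peak and 2.80 and -0.35 at another. RCA (AT2G39730), the Rubisco activase, which overlaps another gene, had 1.09 and 0.76 and no repeatable peak, so that 3 of the 4 genes and 3 of their 5 peaks were repeatable. Of the root genes SCR (AT3G54220), a regulator of radial patterning, had 2 repeatable peaks of 3, PHT1;1 had 1 peak that was not repeatable, and SHR and COBL9 had none. GL2 (AT1G79840), which overlaps another gene and sets trichome and root hair fate, had 4.45 and 6.65 at bases 491 to 631, and TTG1 (AT5G24520), its upstream regulator, had 3.42 and 3.76, while the third trichome gene, GL1, had no peak. None of the 3 shoot meristem genes (STM, WUS, CLV3) or the 5 floral genes (AP1, AP3, PI, AG, LFY) had a peak, and of the guard cell genes only FAMA was listed, with no repeatable peak. An absent peak does not measure tissue content: few cells, little RNA per cell and unmethylated RNA cannot be told apart in these values.

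Gene classes differed widely in how many members had a repeatable peak. The classes were drawn from symbols and synonyms, so they hold named genes only, and each was read against all 10481 such protein-coding genes, of which 5233 (49.9%) had a repeatable peak. Of 27 classes, 11 had a higher share and 16 a lower share. The exact binomial interval lay wholly above the background in 4 and wholly below it in 11. RNA helicases and RNA-binding proteins had the highest share, with 33 of 37 genes (89.2%, interval 74.6 to 97.0). Tubulins, actins and actin-related proteins had 36 of 49 (73.5%, 58.9 to 85.1), photosystem and antenna proteins 33 of 46 (71.7%, 56.5 to 84.0) and ribosomal proteins 40 of 62 (64.5%, 51.3 to 76.3). Within these families near-identical members can share reads, which makes the place of single peaks uncertain.

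Share and strength did not go together in every class. At 4-fold in both replicates the photosystem and antenna share was 21.7% and that of ribosomal proteins 43.5%, against 34.9% of all protein-coding genes with a symbol, so that the photosystem class was below the background. Among listed genes 80.5% of the photosystem class and 87.0% of the ribosomal class had a repeatable peak, against 85.3% of all listed genes with a symbol. The 53 peaks of the photosystem and antenna class had medians of 1.31 and 1.54, against 2.34 and 2.39 over all peaks of protein-coding genes with a symbol. Its strongest, LHCB4.1 (AT5G01530), a minor antenna protein of photosystem II, had 3.75 and 4.20 at bases 941 to 1096. RBP47A (AT1G49600), a stress granule RNA-binding protein, had 4.66 and 4.76 at bases 1410 to 1626. ARPC1A (AT2G30910), a subunit of the actin-nucleating Arp2/3 complex, had 8.62 and 9.53 at bases 1455 to 1570, and ADF8 (AT4G00680), an actin-depolymerising factor, had 8.31 and 8.97 at bases 501 to 655. Among ribosomal proteins RPL18 (AT3G05590), of the large subunit, had 4.03 and 4.54 at bases 591 to 754.

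The lowest shares were those of 5 transcription factor families. GRAS factors had 8 of 11 (72.7%, interval 39.0 to 94.0) and bZIP factors 22 of 49 (44.9%, 30.7 to 59.8), both with intervals that held the background. The intervals of bHLH factors, 7 of 25 (28.0%, 12.1 to 49.4), and homeobox factors, 28 of 95 (29.5%, 20.6 to 39.7), lay wholly below it. So did that of zinc finger proteins, 22 of 69 (31.9%, 21.2 to 44.2). Repeatable peaks were found in 10 of 98 MADS-box genes (10.2%, interval 5.00 to 18.0), 7 of 62 AP2/ERF genes (11.3%), 16 of 104 NAC genes (15.4%), 21 of 132 MYB genes (15.9%) and 13 of 72 WRKY genes (18.1%). Most of the other members had no listed peak at all: 13 MADS-box, 14 AP2/ERF, 28 NAC, 29 MYB and 21 WRKY genes were listed. Read in replicate 2 alone the NAC share was 24.0%, and in replicate 1 alone the AP2/ERF share was 17.7%. Among listed MADS-box genes 76.9% had a repeatable peak, against 85.3% of the listed protein-coding genes with a symbol, and 7 of the 14 listed AP2/ERF genes had 1. RNA levels are not in the files, so scarce and unmethylated transcripts cannot be told apart among the genes not listed.

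Single members of these families had strong peaks. MYB77 (AT3G50060), a regulator of auxin responses in roots, had 7.97 and 9.82 at bases 700 to 859. WRKY2 (AT5G56270), known from pollen and embryo patterning, had 8.11 and 8.18 at bases 2609 to 2764. SEP1 (AT5G15800), a floral organ identity factor, had 10.44 and 5.57 at bases 1312 to 1411, although the floral genes above had no peak. NAC017 (AT1G34190), a membrane-bound factor in mitochondrial retrograde signalling, had 5.12 and 4.90 at bases 1955 to 2104. The medians of MYB peaks were 2.68 and 2.71 and those of the 14 MADS-box peaks 2.72 and 3.21, above those of the background (2.34 and 2.39) in both replicates. WRKY peaks had 2.68 and 2.25 and NAC peaks 2.24 and 2.87, each above the background in 1 replicate only. The 21 AP2/ERF peaks had 1.42 and 1.80, below it in both. WRKY2, SEP1, ARPC1A and HDA6 overlap another gene.

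Other classes lay between these extremes. Cytochrome P450 enzymes had repeatable peaks in 57 of 241 genes (23.7%, interval 18.4 to 29.5), wholly below the background. Their 125 peaks had medians of 1.81 and 1.86, also below it. CYP79B3 (AT2G22330), which makes indole glucosinolate and auxin precursors, was among their strongest, with 10.04 and 5.23 at bases 16 to 184. Protein kinases had 128 of 300 (42.7%, 37.0 to 48.5), again wholly below the background. The intervals of ABC transporters, 60 of 127 (47.2%, 38.3 to 56.3), and histones and histone modifiers, 37 of 65 (56.9%, 44.0 to 69.2), held the background. ABCG37 (AT3G53480), an exporter of coumarins and auxin precursors in roots, had 8.02 and 8.44 at bases 4422 to 4560. HDA6 (AT5G63110), a histone deacetylase in gene silencing, had 5.19 and 5.06 at bases 1453 to 1718. HSP90.1 (AT5G52640), a heat-induced chaperone, had 8.88 and 8.55 at bases 2283 to 2435, whereas the 71 peaks of its class had medians of 1.93 and 1.58. DNA repair and replication genes had a share whose interval held the background, 23 of 55 (41.8%, 28.7 to 55.9), with medians of 3.37 and 3.26 over 43 peaks, the highest of the 27 classes in replicate 1 and exceeded in replicate 2 by the 8 pentatricopeptide repeat peaks alone. MCM4 (AT2G16440), a subunit of the replicative helicase, had 8.10 and 8.23 at bases 429 to 575.

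**Figure D5:**
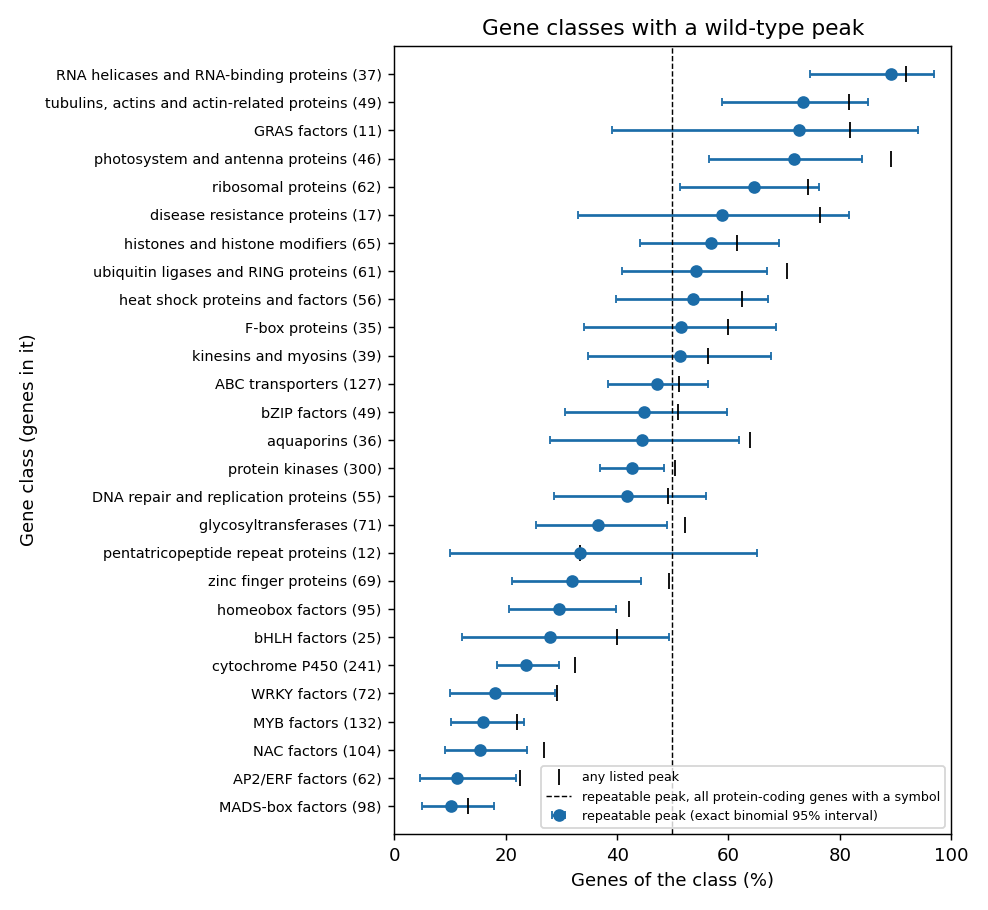
Percent of the genes of each of 27 classes with a repeatable peak (circles, exact binomial 95% intervals) and with any listed peak (vertical ticks), with the number of genes in brackets and a dashed line at the 49.9% of all protein-coding genes with a symbol. RNA helicases and RNA-binding proteins are at the top with 89.2% and MADS-box factors at the bottom with 10.2%.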

How the data were processed

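Pull-down (m6A antibody) and input fragments were sequenced from 2 wild-type replicates, 4 of the 8 libraries in the series. The submitters' processing notes name TopHat2 2.0.14, edgeR and TAIR10, with no role for each. The authors deposited log2 enrichment per peak and replicate, and other columns give the first and last base of each peak, per the file headers. Not given in the sources used here are the peak caller, its threshold, the enrichment formula and its scaling. In the wild-type list 1 column of values matches no sample and was not used. Genes were matched by identifier to the RefSeq gene table (assembly TAIR10.1), used for symbols, gene types and neighbours only: 12853 of 12939 listed genes matched, 6163 of them with a symbol.

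Counts, medians and exact binomial 95% intervals were computed with Python 3.11.15, pandas 2.3.3 and scipy 1.17.1, and figures with matplotlib 3.10.9; the scripts were tested on simulated data. No test was made: the list was chosen for enrichment, and 2 replicates cannot pass an exact test. Because depth is unknown, no counting floor was given. Named genes were those strongest by the lower replicate, steadiest (difference up to 0.25), widest, nearest the gene start, with most repeatable peaks, with the widest gap between last and first peak, the m6A machinery, and up to 3 strongest genes with a symbol per class. The strongest, steadiest, gene-start and gap lists held only genes with a symbol, and the gap list only genes with non-overlapping replicate values. Genes whose peaks disagree between replicates or lie at the threshold were chosen after their values were seen. The members and lists were chosen with earlier results of these data known. Naming peaks beyond the coding length was not run, for want of a protein table.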

Additional observations from a re-analysis of the deposited data

How the results depend on the processing

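Asking for 4-fold enrichment in both replicates left 8378 repeatable peaks, and genes that overlap no other gene held 6925 of the genes with one. Thresholds of 1.5-fold, the mean of the replicates, either replicate alone and joined neighbouring peaks kept both counts within 1.5 times. The median log2 enrichment (2.45 for the mean of the replicates) was 3.08 over repeatable peaks, 3.18 with 1 peak per gene, 2.42 in genes that overlap no other, and 2.42 to 2.44 when a replicate was left out. The share of peaks that began in the first 100 bases was 8.65% of all listed peaks, 5.08% at 4-fold and 8.17% to 8.26% when a replicate was left out; for the first 50 and 200 bases it was 4.00% and 10.9%. The last peak was higher in 68.7% to 69.5% of genes when a replicate was left out, 74.3% in genes that overlap no other and 75.3% after joining peaks, the last 2 settings chosen after seeing the data. Of 27 class shares, 14 moved at 4-fold and 24 when only listed genes were counted. The directions were fixed in advance: a stricter threshold cannot raise a share, and counting only listed genes cannot lower it. No paired analysis was possible because each value is already a pull-down over its own input and no test was made. Placement relative to coding length was not run. Unknown depth and 2 replicates limit every value.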

Other observations

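Some classes were formed after values were seen and are given as values only. All 25 genes named as 26S proteasome subunits, the protease that degrades ubiquitinated proteins, had a repeatable peak, with medians of 2.92 and 3.55 over 32 listed peaks. PBC2 (AT1G77440), a subunit of the core particle, had 9.58 and 7.98 at bases 747 to 915, and RPT5B (AT1G09100), an ATPase of the regulatory particle, had 7.56 and 4.84 but overlaps another gene. Translation initiation factors had repeatable peaks in 24 of 29 genes (82.8%), among them TIF3B1 (AT5G27640), an eIF3 subunit, with 7.34 and 6.51 at bases 2267 to 2463, which also overlaps another gene. Small auxin up RNA genes, which respond early to auxin, had them in 5 of 80 (6.25%). Among all protein-coding genes with a symbol the share was 49.9%.

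Noncoding genes of the RefSeq table were rarely listed. It names 3480 long noncoding RNA genes, of which 79 (2.27%) were listed and 44 (1.26%) had a repeatable peak. Of all protein-coding genes 46.1% were listed and 38.3% had a repeatable peak. Among listed genes the share with a repeatable peak was 55.7% for long noncoding RNA and 83.1% for protein-coding genes. The submitters named TAIR10, and whether its gene models hold all of the noncoding genes was not checked. A gene missing from those models could not be listed. Of the 71 repeatable peaks in noncoding genes 58 lay in genes that overlap another gene, whose reads may not be told apart. Of all 20521 listed peaks, 6939 lay in genes of this kind. Outside such overlaps, AT4G38932 had 5.98 and 8.75 at bases 781 to 880, the primary transcript gene MIR162a (AT5G08185) had 6.32 and 2.76, and TAS1A (AT2G27400), a source of trans-acting small RNAs, had 2.47 and 1.81. Organelle-encoded genes held few and weak peaks. In the chloroplast genome 9 of 38 peaks were repeatable (23.7%, medians 1.08 and 1.02), and in the mitochondrial genome 8 of 16 (medians 1.20 and 1.19), against 68.2% of the whole list. The 5 nuclear chromosomes had similar shares of protein-coding genes with a repeatable peak, between 36.3% and 39.9%.

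Among very high enrichments some values recurred. On the linear scale, 80 of 704 replicate 1 values between 256 and 1024 (11.4%) and 80 of 715 replicate 2 values (11.2%) lay within 0.001 of a whole number ending in 1. For linear values between 1 and 8 the shares were 0.211% and 0.170%. The most frequent value other than an enrichment of 1 was 11, in 9 peaks of each replicate. Adding 0.1 to a whole read count and to an input of 0 reads would give numbers of this form, and such an enrichment would have no exact fold. The formula and the read counts were not at hand, so this was not tested. Values of this form among those printed for named peaks were those of CRLK2 (2461), PARP1 (581), ATX1 (1221), ENDO2 (451), ASY3 (391), PEPR2 (341), IMS2 (491), VPS26B (201), MYB77 (251), ADF8 (501) and VIR (131), each in a single replicate. The inverses of such numbers, which log2 values below 0 could hold, were not counted here.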
